A study of Homo sapiens with 2 samples.

Results

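The genes described here encode the proteins of the cytosolic ribosome, which translates messenger RNA outside mitochondria. They were chosen by symbol: RPL or RPS followed by a digit, or RPLP0, RPLP1, RPLP2 or RPSA, without pseudogenes and without the RPS6K kinases, each read through the probe set with the highest mean of both arrays. Of the 14884 genes with a named probe set, 56 met this rule. Among them are 28 proteins of the large subunit, 17 of the small subunit, 8 paralogs, 1 readthrough transcript (RPL36A-HNRNPH2) and 2 noncoding RNAs that carry a ribosomal symbol (RPL34-DT and RPL26L1-AS1). The other 32 genes of the human ribosome that the symbol rule would cover, among them RPL5, RPLP0, RPS2 and RPSA, had no named probe set and are not analysed here.

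The samples were HT1080 cells, an established human fibrosarcoma line, and each condition was read on 1 Affymetrix Human Gene 2.0 ST array. Control cells had been infected with virus carrying a non-targeting shRNA (a short hairpin RNA that silences by RNA interference), and the cMyc shRNA cells with virus carrying an shRNA against cMyc, the transcription factor encoded by MYC. All were harvested 48 hours after infection, and nothing in the labels gives the hairpin sequences or a second hairpin. With 1 array per group there is no replicate error and no test, so every difference below compares these 2 arrays.

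A ribosome holds a single copy of nearly every ribosomal protein, and cells make the proteins in step with each other and with ribosomal RNA. Their messenger RNAs typically begin with a terminal oligopyrimidine (TOP) tract, a run of C and T letters at the start of transcription through which mTOR signalling and the binding protein LARP1 control translation. MYC is known to promote ribosome production through RNA polymerases and through genes of ribosomal proteins and assembly factors. Mutations in many ribosomal protein genes cause Diamond-Blackfan anaemia.

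The values are log2 levels. Where a gene has a pair of values, the first is from the control shRNA array and the second from the cMyc shRNA array, and differences are cMyc minus control. A gene counted as measured when its mean was at or above the median of all probe sets (3.70), which kept 10258 named genes and 54 of the 56 ribosomal protein genes. MYC itself read 7.09 and 6.16. Of 4 named mesenchymal markers 3 were measured. FN1 read 12.4 and 12.6, VIM 9.94 and 9.34 and THY1 4.50 and 4.86, while S100A4 (3.06 and 3.39) was below the level filter. Of the named markers of other cell types, 4 of 6 epithelial, 2 of 4 haematopoietic and 0 of 3 endothelial ones were measured. EPCAM (2.73 and 3.07), CD14 (3.53 and 3.22) and PECAM1 (2.82 and 2.99) were below the level filter, while KRT18 read 9.09 and 8.41, LCP1 9.33 and 8.83 and CD68 10.4 and 11.3. Their part in the results was not tested. Values are relative within an array, so a change shared by all transcripts would not show. In bulk RNA, fewer cells of a type and less RNA per cell cannot be told apart.

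Most ribosomal protein genes read lower with the cMyc shRNA, typically by a small amount, over a range from -1.15 (RPL30) to 0.26 (RPS27L). Of the 54 measured genes 47 (87.0%) lay below 0, against 51.3% of all 10258 measured genes, and 7 lay above. Their median log2 difference was -0.25, or 1.19-fold lower, with quartiles of -0.38 and -0.10. Over all measured genes the median was -0.01 with quartiles of -0.31 and 0.26. Large differences were few. At least 2-fold lower was 1 member (RPL30), where 410 of all 10258 measured genes (4%) were, and 0 members were at least 2-fold higher, where 2.01% of all genes were. At least 1.5-fold lower were 6 members of 54, a share near the background of 11.9%, and 0 were at least 1.5-fold higher, where 8.77% of all genes were. These 54 passed a filter on the mean of both arrays, and the 2 that did not, RPL10L (2.90 and 2.72) and RPL39L (2.52 and 2.71), lay on either side of 0.

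**Figure D1:**
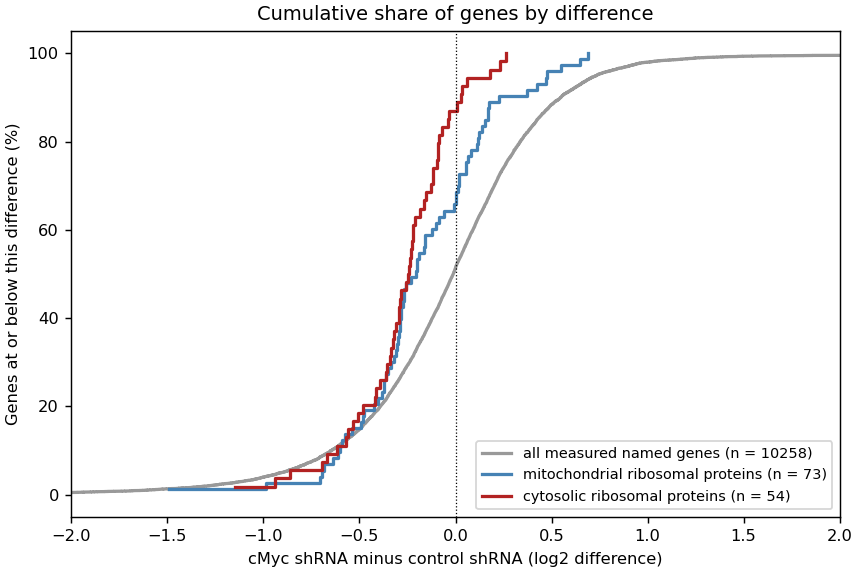
Cumulative share of genes (vertical axis, percent) by log2 difference between the cMyc shRNA and control shRNA arrays (horizontal axis), for the 54 measured cytosolic ribosomal protein genes, 73 mitochondrial ribosomal protein genes and all 10258 measured named genes. The cytosolic curve is steep and reaches 87.0% before 0, while the curve of all genes crosses 0 at 51.3%.

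The spread between probe sets of the same gene was larger than the typical shift. It was taken as an SD from how far apart the 2 brightest probe sets of a gene lay. This gave 0.34 (log2) over 416 genes and 0.26 over the 5 members with such a pair. Both probe sets were read on the same 2 arrays, so this spread holds no error between arrays, infections or cultures. A total of 36 members had a difference smaller than 0.34 in size. For any of these genes taken alone the difference is within that spread, and the statement concerns how many lay on one side.

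The large subunit, which holds the peptidyl transferase centre and the exit tunnel, had 26 of 28 measured genes below 0 and a median of -0.25. The share below 0 was 92.9%, against 51.3% of all measured genes. RPL30, a small protein also known to bind the selenocysteine insertion element of messenger RNAs, read 6.21 and 5.06, a difference of -1.15 (2.21-fold lower). It was the lowest member, and 282 of all measured genes lay lower still. RPL29, a short basic protein, went from 8.04 to 7.18 (-0.86). RPL34 read 7.32 and 6.70 (-0.62), and RPL32 read 6.12 and 5.56 (-0.56). All 4 belong to the class with no counterpart in the bacterial ribosome. This class holds 27 of the 45 measured subunit genes, so 4 such genes are no result about it. All 4 were lower by more than the probe set spread of 0.34. RPL9, which has a bacterial counterpart, read 7.63 and 7.09, a difference of -0.54.

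At the other end of the large subunit, RPL26 and RPL8 lay just above 0. RPL26, a protein at the exit tunnel, read 10.11 and 10.14 (0.03). RPL8, near the peptidyl transferase centre, read 8.01 and 8.02 (0.01). RPL18 differed by -0.04, with 6.22 and 6.18. These 3 genes read nearly the same on both arrays. Around the exit tunnel, where the nascent chain leaves, 7 of 9 listed proteins were measured (RPL17, RPL19, RPL22, RPL26, RPL31, RPL35 and RPL39). Of these, 6 (85.7%) lay below 0, against 51.3% of all measured genes, with a median of -0.23. Their range was narrow, from -0.29 for RPL31 to 0.03 for RPL26. Of the stalk, which recruits the translation GTPases, only the base protein RPL12 had a named probe set, and it read 12.58 and 12.46. RPL11, which with RPL5 binds MDM2 when ribosome assembly is disturbed, read 10.80 and 10.59 (-0.21).

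The small subunit, which decodes messenger RNA, had 16 of 17 measured genes below 0 and a median of -0.23, close to that of the large subunit. The share below 0 was 94.1%, against 51.3% of all measured genes. RPS26, which lines the messenger RNA exit channel, read 7.26 and 6.56 (-0.70, 1.62-fold lower). RPS23, a decoding centre protein, read 7.91 and 7.24 (-0.67, 1.59-fold lower). These 2 were the members of the small subunit past 1.5-fold. RPS16, of the subunit head, followed with 8.41 and 7.90 (-0.51). RPS28 was the member above 0, at 12.55 and 12.58. RPS18 and RPS3, both of the head, read 8.41 and 8.38 (-0.04) and 6.87 and 6.80 (-0.07). RPS6, the best known substrate of the ribosomal S6 kinases, read 8.39 and 8.17 (-0.22). The 10 measured proteins of the body and platform all lay below 0, with a median of -0.28. Of the 7 measured proteins of the head 6 (85.7%) did so, with a median of -0.13. With no replicate, this gap between the head and the rest was not tested.

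**Figure D2:**
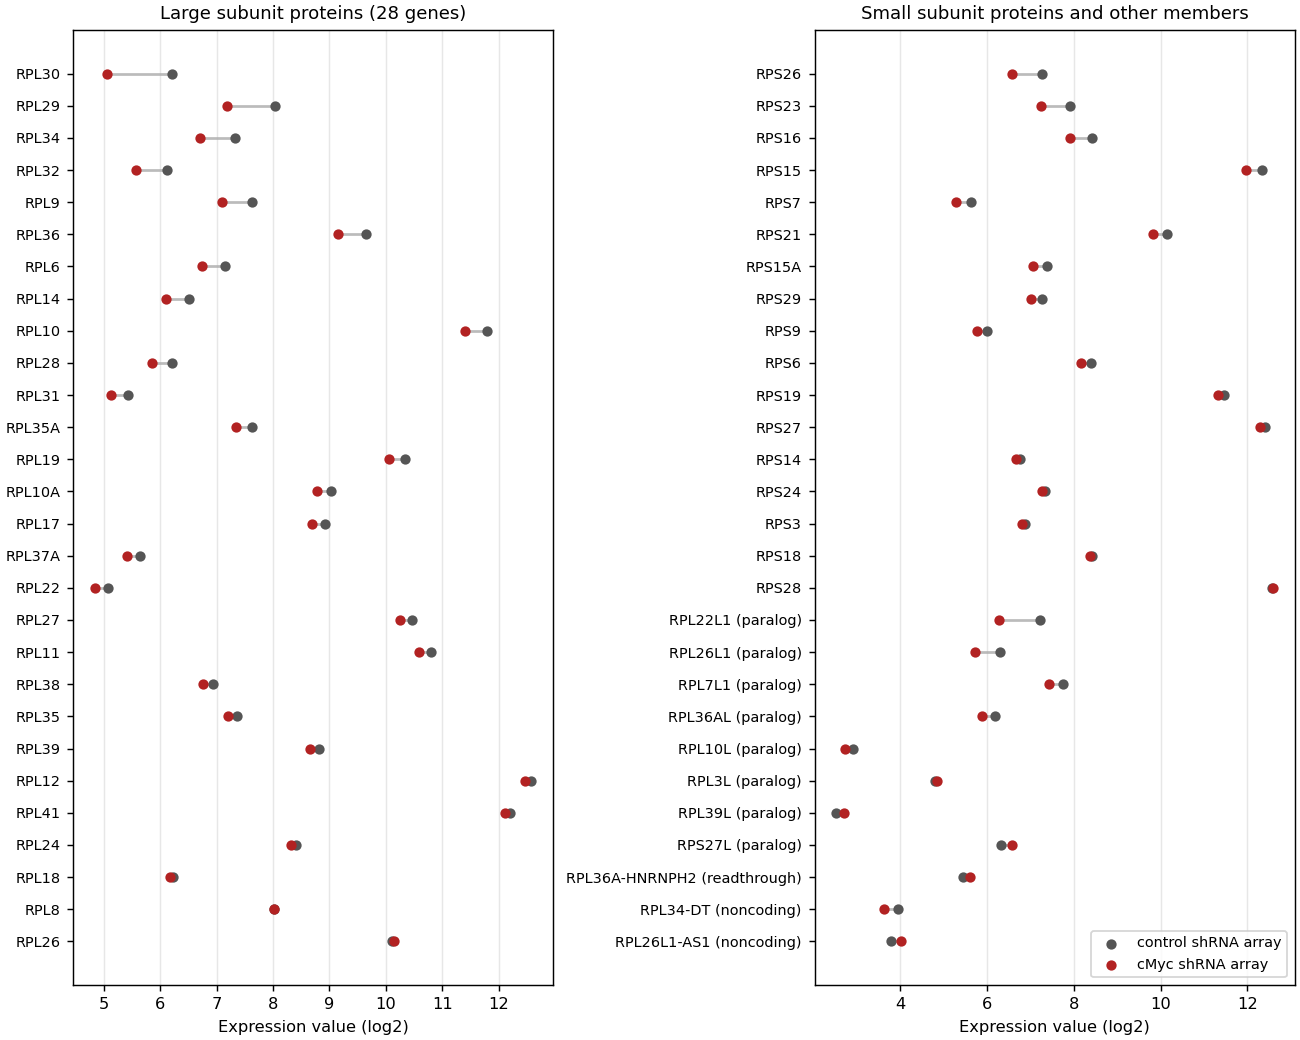
Log2 expression values (horizontal axis) of each of the 56 ribosomal protein genes on the control shRNA array (grey) and the cMyc shRNA array (red), ordered by difference within the large subunit (left) and within the small subunit, paralogs, readthrough and noncoding members (right). Red points lie left of grey ones for 26 of 28 large subunit genes and 16 of 17 small subunit genes, with RPL30 farthest apart at -1.15.

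FAU, which encodes a small subunit protein fused to a ubiquitin-like domain, falls outside the symbol rule and was the only measured gene of 3 such ribosomal genes. It read 6.15 and 5.58 (-0.57), lower than 15 of the 17 small subunit members. Proteins shared with bacteria and those that are not differed little: 18 universal members had a median of -0.24 and 27 others a median of -0.29, with 16 and 26 below 0. These shares were 88.9% and 96.3%, against 51.3% of all measured genes. Of the 20 listed genes of Diamond-Blackfan anaemia 15 were measured, 13 of them (86.7%) below 0, with a median of -0.21. This was close to all measured members, with 87.0% below 0 and a median of -0.25. RPS26 was the lowest of the listed genes. RPS19, the gene most often mutated in the disease, read 11.46 and 11.33 (-0.13), RPS24 read 7.34 and 7.26 (-0.08), and RPS7 read 5.64 and 5.29 (-0.34). Among the large subunit genes of this list RPL35A read 7.64 and 7.35, RPL31 5.43 and 5.13, RPL27 10.47 and 10.25, and RPL35 7.37 and 7.20. The differences of these genes lay between -0.29 and -0.17. RPL11 (-0.21) and RPL18 (-0.04), described above, are also on the list. Among those of the small subunit RPS15A read 7.37 and 7.05 (-0.32) and RPS29 7.26 and 7.00 (-0.26). The 2 members of this list above 0 were RPL26 and RPS28.

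The paralogs ranged from -0.94 to 0.26. RPL22L1, a paralog whose expression RPL22 is known to restrain, read 7.22 and 6.28, a difference of -0.94 (1.92-fold lower). RPL22 itself read 5.07 and 4.84 (-0.23). RPL22L1 was the second lowest member. RPL26L1 read 6.30 and 5.73 (-0.57), while RPL26, its near-identical partner, differed by 0.03. RPS27L, a paralog of RPS27, was the highest member: it read 6.32 and 6.58 (0.26, 1.20-fold higher), whereas RPS27 read 12.40 and 12.29 (-0.12). RPS27L lay within the probe set spread of 0.34, and probes of near-identical paralogs can read each other's transcripts. RPL36AL read 6.18 and 5.89 (-0.29), and RPL7L1, an assembly factor related to RPL7, read 7.74 and 7.43 (-0.31). RPL3L, a muscle paralog of RPL3, read 4.79 and 4.85 (0.06). The 6 measured paralogs had 4 below 0 (66.7%), against 51.3% of all measured genes, and a median of -0.30. With 6 genes this share is no result about paralogs.

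The readthrough transcript RPL36A-HNRNPH2 read 5.43 and 5.61 (0.18). RPL34-DT, a divergent transcript beside RPL34, read 3.95 and 3.62 (-0.34). RPL26L1-AS1 read 3.78 and 4.01 (0.23) on its brighter probe set and 4.04 and 3.54 (-0.50) on the other, so its direction depended on the probe set. Both noncoding RNAs lay just above the level filter of 3.70. Small nucleolar RNAs, which guide ribosomal RNA modification, often lie in introns of ribosomal protein genes. RefSeq places 11 of them inside 8 of the measured members, and 0 of the 11 had a named probe set.

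Most of these genes have a run of C and T letters, as in a TOP tract, near the annotated start. Whether transcription begins within the run was not tested. The sequences below are from RefSeq (GRCh38.p14), 15 bases before and 15 after the annotated start, 5′ to 3′ on the gene's strand, for the 5 lowest and 5 highest measured subunit genes whose entry could be shown. Capitals mark the longest run of C and T where it reached 8 letters.
RPL29 (-0.86), chr3:51995881-51995910, minus strand: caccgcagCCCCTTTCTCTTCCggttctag
RPS26 (-0.70), chr12:56041903-56041932, plus strand: gagacacataacctcgaTTTTCTTCCgcca
RPS23 (-0.67), chr5:82278340-82278369, minus strand: tcctgcggtgCTTCTCTCTTTCgctcaggc
RPL34 (-0.62), chr4:108620561-108620590, plus strand: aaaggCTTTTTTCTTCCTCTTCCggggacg
RPL32 (-0.56), chr3:12840436-12840465, minus strand: ggtgaggtgacccttgacctcctgggatcg
RPS3 (-0.07), chr11:75399503-75399532, plus strand: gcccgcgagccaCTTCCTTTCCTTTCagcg
RPL18 (-0.04), chr19:48619164-48619193, minus strand: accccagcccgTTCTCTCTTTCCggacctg
RPS18 (-0.04), chr6:33272060-33272089, plus strand: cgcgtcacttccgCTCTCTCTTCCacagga
RPS28 (0.03), chr19:8321481-8321510, plus strand: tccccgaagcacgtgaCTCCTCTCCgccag
RPL26 (0.03), chr17:8383179-8383208, minus strand: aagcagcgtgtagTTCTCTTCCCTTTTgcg
Of these 10 windows only that of RPL32 has no capitals, so the run stands near the annotated start of both the lowest and the highest genes.

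Of the 45 subunit genes 42 had an entry in the table of RefSeq promoters used here. Of these, 36 (85.7%) had a run of at least 8 C or T letters within 10 bases before to 20 bases after an annotated start. The same was found for 15.4% of all 27305 genes of the table and for 17.2% of the 7900 measured genes with an entry. The 36 genes with the run had a median difference of -0.23 with 34 below 0, and the 6 without it a median of -0.34 with 6 below 0. Over the 7850 measured genes that are no members, those with the run had a median of -0.04 and those without it -0.01. Of these, 54.3% with the run and 51.0% without it lay below 0. A match is a description of letters, and the lack of one says only that they are not in this window.

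Paralogs differed in this feature too. The starts of the 3 pairs in which both the paralog and its partner were measured are shown with the same windows and capitals.
RPL22 (-0.23), chr1:6199581-6199610, minus strand: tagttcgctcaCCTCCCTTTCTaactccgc
RPL22L1 (-0.94), chr3:170870181-170870210, minus strand: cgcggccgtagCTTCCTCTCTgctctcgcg
RPL26 (0.03), chr17:8383179-8383208, minus strand: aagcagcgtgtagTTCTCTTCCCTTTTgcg
RPL26L1 (-0.57), chr5:172958714-172958743, plus strand: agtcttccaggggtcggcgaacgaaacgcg
RPS27 (-0.12), chr1:153990747-153990776, plus strand: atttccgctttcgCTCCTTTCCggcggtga
RPS27L (0.26), chr15:63157463-63157492, minus strand: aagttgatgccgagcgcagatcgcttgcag
RPL22L1 has a run like its partner. Within the bases searched for the counts of runs above, the longest run is 3 letters in both RPL26L1 and RPS27L. It is 14 in RPL26 and 9 in RPS27. The window shown for RPL26L1 begins before the searched bases and holds a longer run (tcttcc), still too short for capitals. Of the 2 paralogs without a run long enough for capitals, RPL26L1 lay below its partner and RPS27L above.

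The canonical E-box CACGTG, a sequence that MYC with MAX can bind and that reads the same on both strands, was searched from 250 bases before to 50 after each annotated start. It was present in 3 of the 42 subunit genes (7.14%), against 8.77% of all genes of the table and 12.2% of measured genes with an entry. RPS28, RPS19 and RPL19 hold it, as does the paralog RPL7L1. The sequences below show it in capitals with its flanks.
RPL7L1 (-0.31), chr6:42879488-42879517, plus strand: cacttccacctaCACGTGagagccaaagcc
RPL19 (-0.29), chr17:39200040-39200069, plus strand: gttacagataacCACGTGattgggaaccct
RPS19 (-0.13), chr19:41860403-41860432, plus strand: tagagccgcggcCACGTGcgagcggcaggc
RPS28 (0.03), chr19:8321478-8321507, plus strand: ctctccccgaagCACGTGactcctctccgc
In RPS28 the motif begins 6 bases before the annotated start, in RPL7L1 116 bases before it and in RPL19 231 bases before one of its starts. None of these 4 genes was among the 8 lowest members. Those 8 are a small part of the 54 measured members, so this absence is no result about the motif. RPL30, the lowest member, had no entry in the table of promoters used here and was not searched.

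The small shift was seen at every level of signal. The measured members were divided at the quartiles of their mean level (6.08, 7.29 and 8.88) into classes of 14, 13, 13 and 14 genes. From the dimmest to the brightest class, 11, 12, 12 and 12 members lay below 0, with medians of -0.29, -0.26, -0.24 and -0.22. Among all measured genes of the same 4 classes 48.5%, 56.9%, 50.9% and 53.8% lay below 0, with medians of 0.01, -0.08, -0.01 and -0.05. Over the 54 members, which share both arrays, mean level and difference correlated with r = 0.12 and rho = 0.11.

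**Figure D3:**
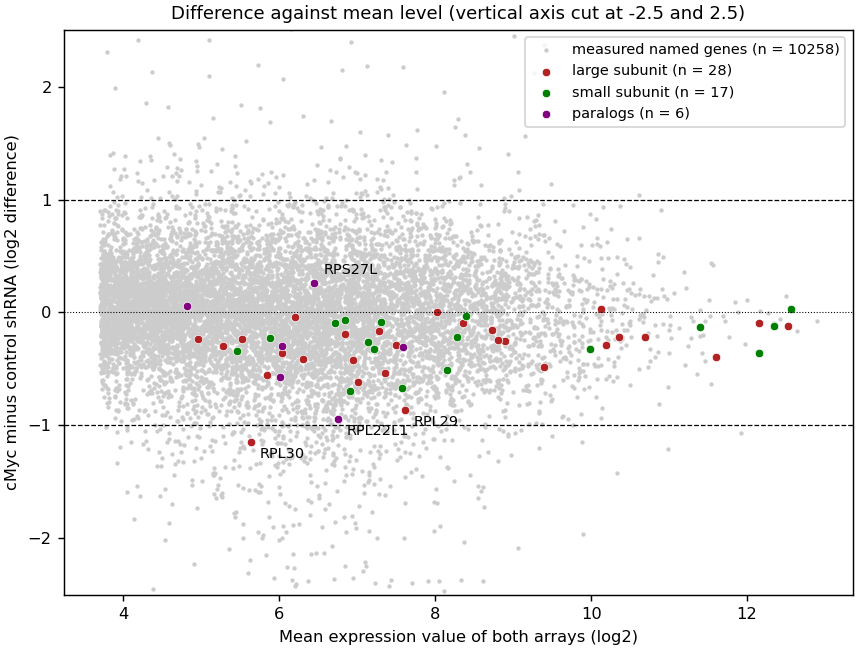
Log2 difference between the cMyc shRNA and control shRNA arrays (vertical axis, cut 2.5 from 0 on either side) against the mean log2 value of both arrays (horizontal axis), with measured named genes in grey and large subunit genes, small subunit genes and paralogs in colour. Dashed lines mark 2-fold; RPL30 is the only coloured point beyond them.

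Ribosomal protein genes have many processed pseudogenes, so the probe sets were examined further. Probe set identifiers run mostly in chromosome order. For 2.16% of all named probe sets at most 5 of the 10 nearest named probe sets belonged to genes of the same chromosome. Among the members this held for 7 of 56: RPL10, RPL12, RPL31, RPL41, RPS18, RPS27 and RPS28. Which genomic copies these probe sets read was not tested. Their differences ran from -0.39 for RPL10, which read 11.80 and 11.41, to 0.03 for RPS28, with a median of -0.12. The 47 measured members in chromosome order had a median of -0.26 with 41 below 0. With such probe sets left out, and the other probe sets of RPL41 and RPS18 in their place, 49 measured members had a median of -0.25 with 42 below 0.

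A total of 5 members had several named probe sets. RPL19 read 10.34 and 10.05 (-0.29) on the brighter and 8.90 and 8.76 (-0.14) on the other. RPL39 read 8.81 and 8.65 (-0.15) on the brighter and 6.21 and 5.86 (-0.35) on the other. RPL41, a very short peptide of the large subunit, had 5 probe sets. The brightest read 12.21 and 12.11 (-0.10), the next ones differed by -0.38, -0.36 and -0.11, and the one in chromosome order read 6.77 and 6.72 (-0.05). RPS18 differed by -0.04 on the brighter probe set and read 7.44 and 7.50 (0.06) on the one in chromosome order, so its sign depended on the choice.

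**Figure D4:**
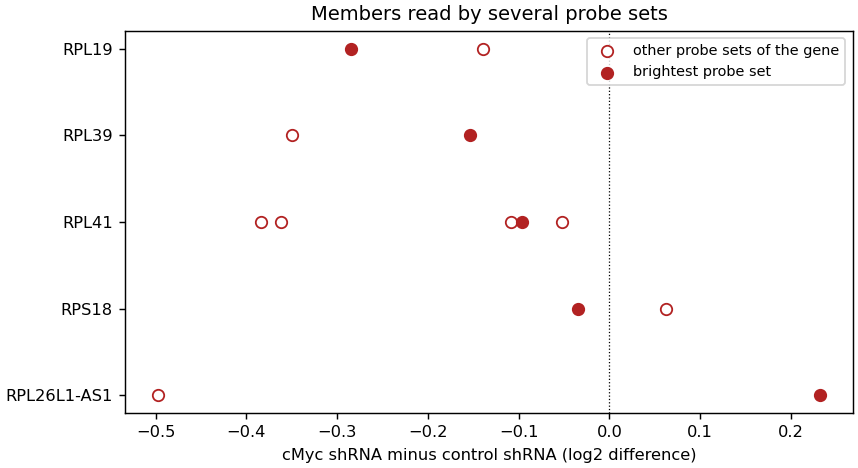
Log2 difference between the cMyc shRNA and control shRNA arrays (horizontal axis) for each named probe set of the 5 members with several, with the brightest filled. RPL19, RPL39 and RPL41 lie below 0 on every probe set, while RPS18 and RPL26L1-AS1 lie on both sides of it.

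Named pseudogenes of ribosomal proteins numbered 25, of which 15 were measured. Of these 5 lay below 0, where 51.3% of all measured genes did, and 10 above. They had a median of 0.02 and a range from -0.59 (RPL21P28) to 0.66 (RPL23AP82). RPL13AP20, which read 11.44 and 10.98, was the brightest of them. RPL29P2 differed by -0.28 where RPL29 differed by -0.86, and RPL32P3 by 0.50 where RPL32 differed by -0.56. RPS15AP10 differed by 0.33 where RPS15A differed by -0.32. Whether the pseudogene and parent probe sets share probes was not tested.

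Lists of genes that handle ribosomal proteins or share the TOP class are given against the 51.3% of all measured genes that lay below 0 and their median of -0.01. Dedicated chaperones and loading factors of ribosomal proteins had 9 of 11 measured genes below 0 and a median of -0.51. MRTO4, which holds the place of the stalk during assembly, read 8.15 and 7.06 (-1.09, 2.13-fold lower), and ZNF277, a partner of RPS2, was highest at 0.65. Listed importins, some of which carry ribosomal proteins into the nucleus, had 9 of 10 below 0 and a median of -0.33. They ranged from KPNB1 (-0.66) to TNPO3 (0.15). Other genes with TOP messenger RNAs, mainly translation factors, had 9 of 9 below 0 and a median of -0.29, from HNRNPA1, an RNA-binding protein (-0.83), to EEF2, the translocation factor (-0.10). NAP1L1 stands in both the chaperone and the TOP list.

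Regulators of TOP messenger RNA translation and mTOR were spread widely. They had 6 of 9 (66.7%) below 0, against 51.3% of all genes, and a median of -0.32. EIF4EBP1, a repressor of cap-dependent translation that mTOR inactivates, read 9.38 and 7.35 (4.09-fold lower). Its relative EIF4EBP2 was highest at 0.76. LARP1 had no named probe set. Transcription factors tied to ribosomal protein promoters had 8 of 9 below 0 and a median of -0.42. They ranged from TBP, the TATA-binding protein (-1.01), to MAX, the partner of MYC (0.09). MYC (-0.93), the target of the shRNA, is among them and enters both the count and the median. Factors of quality control of ribosomes and surplus ribosomal proteins had 3 of 5 below 0, a share near the 51.3% of all genes. Their median was -0.35, with a range from ZNF598 (-0.72) to RNF14 (0.35). The list of S6 kinases had 1 named gene of 10 and 0 measured.

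Mitochondrial ribosomal protein genes, which serve a separate ribosome and are not of the TOP class, had 48 of 73 measured genes (65.8%) below 0 and a median of -0.20, against 51.3% and a median of -0.01 for all measured genes. Their lower quartile of -0.37 was close to that of the cytosolic genes (-0.38), while their upper quartile was 0.05 against -0.10. MRPL45 was lowest at -1.49 and MRPL54 highest at 0.69. With 1 array per condition the difference between both families was not tested.

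**Figure D5:**
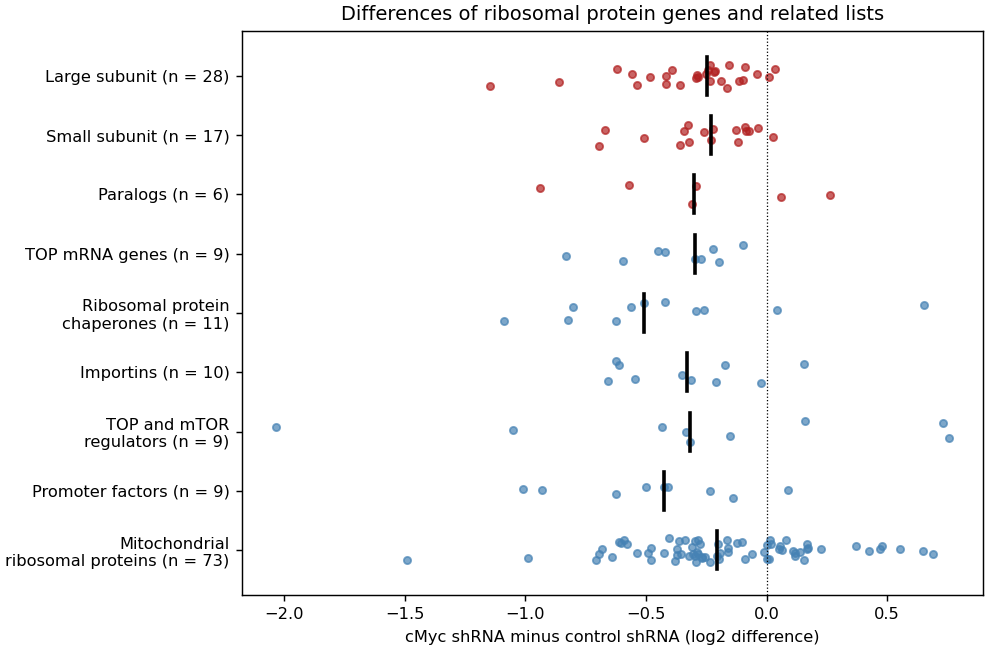
Log2 difference between the cMyc shRNA and control shRNA arrays (horizontal axis) for each measured gene of the large subunit, small subunit, paralogs and 6 related lists, with the median of each as a black bar and points spread vertically for legibility. All 9 medians lie below 0, from -0.51 for the chaperones to -0.20 for the mitochondrial ribosomal proteins.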

How the data were processed

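Array data of HT1080 cells were used, 1 array per condition. The deposited table holds log2 values per probe set, made by the authors with Affymetrix Expression Console per the submitters' processing notes. The log base was inferred from the range (1.41 to 13.9), while the sources used here do not give the background correction, normalization, version or genome build. The array medians were 3.68 and 3.73, and no detection calls or scanner intensities were used, so the number of arrays limits the precision.

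GEO's platform annotation supplied the gene names, with 1 symbol for each of 16098 of 53617 probe sets. Promoter sequences, biotypes and neighbouring genes came from RefSeq (GRCh38.p14). Differences, medians and counts were computed with pandas 2.3.3 and numpy 2.4.6, loess with statsmodels 0.14.6 (span 0.3), under Python 3.11.15. The calculations were tested on simulated data. No statistical test was possible. A rule of at least 2-fold was used, with 1.5-fold beside it. The members and lists were chosen with earlier results of these data known. Any subunit gene could be named. Both array values were given for the 8 lowest and 8 highest measured members, paralogs, stalk and Diamond-Blackfan genes and brightest probe sets; other lists are given by their lowest and highest gene. Alternatives covered 3 scalings, 2 probe set rules, 2 level filters, 2 member sets and the mean in place of the median.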

Additional observations from a re-analysis of the deposited data

How the results depend on the processing

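The median of the ribosomal protein genes stayed below 0 under all 12 alternatives, between -0.29 (arrays centred on their medians) and -0.21 (quantile normalization). The share below 0 ran from 83.3% (45 of 54, quantile normalization) to 93.3% (42 of 45, subunit proteins alone), and the number at least 1.5-fold lower from 4 to 8. RPL30 remained the 1 member at least 2-fold lower, and 0 were at least 2-fold higher, under all 11 alternatives that give counts. The large subunit median ran from -0.29 to -0.23 and the small subunit median from -0.27 to -0.17. The scalings moved the median of all measured genes to between -0.06 and 0.00, and the share of all genes below 0 to between 49.6% and 55.9%. Of 331 values of single members with other scalings or other probe sets, 329 stayed within 0.34 of the value given. The other 2 were RPL26L1-AS1 at -0.13 with the mean or median over its probe sets. Most members had 1 named probe set, so most of their values under other probe set rules could not change. The count is therefore no measure of robustness. The restriction to probe sets in chromosome order and the removal of the noncoding RNAs were chosen after seeing the data. No paired analysis was possible because each condition has 1 array.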
